A study of Mus musculus with 8 samples.

Results

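Of 10 antioxidant and NRF2 target genes read out in adult mouse hearts, 1 passed the test between WT and Mettl3 KO hearts. Gpx3, which codes for a secreted glutathione peroxidase, rose 1.51-fold, from a normalized read count of 166 ± 5.97 to one of 251 ± 22.3 (SD, n = 4 each). The other 9 genes (Gclc, Gclm, Txnrd1, Srxn1, Nqo1, Sod1, Sod2, Cat and Gpx1) did not pass. The 10 genes were chosen by name, as the rows of a table of 23045 genes that carry these symbols. All 10 were found and all 10 passed the filter on low values. In the table as a whole, 7.91% of the 20313 tested genes passed (limma adjusted p under 0.05), 4.72% with higher and 3.19% with lower values in Mettl3 KO hearts, so that 1 of 10 is near the share seen over all genes.

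NRF2, the protein of the gene Nfe2l2, is a transcription factor that is held in the cytoplasm and marked for degradation by KEAP1. Oxidants and electrophiles modify KEAP1, and NRF2 then accumulates, enters the nucleus and binds antioxidant response elements together with small MAF proteins. Its targets make glutathione, keep thioredoxin reduced and detoxify quinones, while superoxide dismutases, catalase and glutathione peroxidases remove superoxide and peroxides. Heart muscle relies on this system because its many mitochondria release superoxide during respiration.

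Heart libraries of WT mice (Mettl3lox/lox, n = 4 libraries) and Mettl3 KO mice (Mettl3lox/lox:alphaMHC-MerCreMerpos, n = 4 libraries) were compared, which asked how loss of METTL3, the enzyme that writes N6-methyladenosine (m6A) on RNA, changes transcripts of the heart. Mice of both groups were 10 to 16 weeks old and received tamoxifen on 7 consecutive days, and the time from then to harvest is not given in the sources used here. MerCreMer is a tamoxifen-activated Cre recombinase, and the alphaMHC promoter drives it in cardiomyocytes, so that other cells of the heart keep Mettl3. The controls carried no Cre, and effects of the transgene and of the deletion cannot be told apart. The labels do not say that each library came from a separate animal, so p-values measure the spread between these libraries. In RNA of heart tissue, fewer cells of a type and less RNA per cell cannot be told apart.

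Values are normalized read counts, which summed to between 2839589 and 2916986 per library. They stand for 2631905 to 3060369 reads per library. A value of 0 allowed up to 3 reads, which corresponds to 2.78 to 3.33 normalized read counts, for counting error only. Mettl3 itself had 105, 133, 118 and 107 in WT, against 74, 68, 69 and 78 in Mettl3 KO (log2 fold change -0.67, limma adjusted p = 0.000184), which matched the labels. The 8 cardiomyocyte markers, a sum that Ttn dominates, came to 90581 to 97179 in WT and 87923 to 98408 in Mettl3 KO libraries. Of these 8, Ryr2 fell (log2 fold change -0.23, limma adjusted p = 0.000137) and the other 7 did not pass, with positive log2 fold changes of up to 0.10 and a list median of 0.04. A pair of libraries stood apart in atrial muscle markers. Myl7 was listed at 26, 21, 0 and 23 in WT, against 23, 65, 90 and 119 in Mettl3 KO, so that WT replicate 3 lay below its group and Mettl3 KO replicate 1 lay with the WT libraries. Myl4 and Sln placed these libraries likewise. Kcnj3 went the other way, with WT replicate 3 the highest (616) and Mettl3 KO replicate 1 the lowest (438) of all libraries.

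The antioxidant response element core TGACNNNGC was searched on both strands of RefSeq promoters (build GRCm38.p6, 250 bases before to 50 after a transcription start), because it is the sequence that NRF2 recognizes with small MAF proteins. It occurred in 12.4% of 32851 promoters. Of the 10 genes, 9 had an entry, with 11 promoters in all, and 4 held the core. The windows below run 5′ to 3′ on the strand of the gene, with the core in capitals. In all 4 the core lay in reverse orientation, so that the capitals show its reverse complement.
Gclm, chr3:122245413-122245441: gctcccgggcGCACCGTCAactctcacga
Txnrd1, chr10:82859104-82859132: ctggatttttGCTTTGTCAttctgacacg
Srxn1, chr2:152105542-152105570: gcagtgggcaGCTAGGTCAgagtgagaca
Sod1, chr16:90220696-90220724: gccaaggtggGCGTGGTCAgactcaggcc

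The core began 134 bases before the start in Gclm, 92 before it in Txnrd1, 56 before it in Sod1 and 28 after it in Srxn1. In Txnrd1 it was found at 1 of 3 annotated starts. The promoters of Nqo1, Sod2, Cat, Gpx1 and Gpx3 held no match, which says only that these letters are not in this window. None of the 4 genes with the core passed the test between the genotypes, and their log2 fold changes lay between -0.25 and -0.06. Gpx3 is the gene that did pass, and for this reason the 250 bases before its start are given here (GRCm38.p6, plus strand, chr11:54902604-54902853, 55.2% GC).
Gpx3 upstream: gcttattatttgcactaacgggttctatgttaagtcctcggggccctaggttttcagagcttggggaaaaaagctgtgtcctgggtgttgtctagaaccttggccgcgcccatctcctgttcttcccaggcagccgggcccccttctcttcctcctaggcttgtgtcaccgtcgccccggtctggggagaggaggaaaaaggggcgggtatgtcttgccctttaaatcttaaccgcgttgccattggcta

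GGACT, a core sequence that METTL3 methylates, was counted in the longest coding transcript of each gene (GRCm38 annotation, sense strand). Gpx3 and Sod1 held 0 copies, which was also the case for 7.32% of 14384 tested genes with such a transcript. The other 8 genes held between 2 (Gclc, Nqo1, Txnrd1, Sod2 and Gpx1) and 4 copies (Gclm and Srxn1), with 3 in Cat. Per kb of transcript the 10 genes ranged from 0 to 1.87 (Gpx1), beside a median of 1.05 over the tested genes. These are matches of letters, and methylation was not measured in these libraries.

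The first step of glutathione synthesis is carried out by glutamate-cysteine ligase, with the catalytic subunit Gclc and the modifier subunit Gclm. Gclc (ENSMUSG00000032350, mm39 chr9:77661817-77701767, plus strand) had 71, 85, 71 and 89 normalized read counts in WT, against 71, 80, 82 and 72 in Mettl3 KO. All Mettl3 KO values lay inside the WT range. The log2 fold change of Gclc was -0.05 (SE 0.11 and limma adjusted p = 0.882). For Gclm (ENSMUSG00000028124, mm39 chr3:122039206-122064381, plus strand) the values were 125, 88, 114 and 94 in WT, against 92, 111, 96 and 94 in Mettl3 KO. Again the WT range enclosed the Mettl3 KO range, and the log2 fold change was -0.09 (SE 0.11 and limma adjusted p = 0.738). This log2 fold change was -0.00129 without WT replicate 1 and -0.17 without WT replicate 2. Gclm was the most variable of the 10 genes in WT hearts, with a coefficient of variation of 16.4%. Counting error alone gives about 9.87% at the mean over both groups. The ratio of Gclm to Gclc, each per kb of exon, was 0.620 to 1.05 in WT and 0.701 to 0.831 in Mettl3 KO libraries, with the Mettl3 KO values inside the WT range.

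Thioredoxin reductase 1 (Txnrd1), sulfiredoxin (Srxn1) and NAD(P)H quinone dehydrogenase 1 (Nqo1) are reductases and classical NRF2 targets. Txnrd1 (ENSMUSG00000020250, mm39 chr10:82669785-82733546, plus strand), a selenoprotein that reduces oxidized thioredoxin, had 235, 275, 248 and 250 in WT, against 265, 242, 213 and 246 in Mettl3 KO. The groups overlapped over most of their range, with a log2 fold change of -0.06 (SE 0.07 and limma adjusted p = 0.709). This log2 fold change was -0.00452 without Mettl3 KO replicate 3 and -0.11 without Mettl3 KO replicate 1. Srxn1 (ENSMUSG00000032802, mm39 chr2:151947436-151953296, plus strand), which restores overoxidized peroxiredoxins, had 111, 88, 117 and 91 in WT, against 101, 81, 76 and 84 in Mettl3 KO. In Mettl3 KO, replicates 2, 3 and 4 lay below every WT library and replicate 1 lay among them. The log2 fold change of Srxn1 was -0.25 (SE 0.11), with a p of 0.0435 in limma before adjustment and 0.224 after it.

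Nqo1 (ENSMUSG00000003849, mm39 chr8:108114857-108129838, minus strand) reduces quinones by transfer of an electron pair and is widely read as a marker of NRF2 activity. Its normalized read counts were 156, 134, 151 and 125 in WT, against 120, 125, 115 and 115 in Mettl3 KO. The groups touched at 125. The means were 142 ± 14.5 and 119 ± 4.79 (SD, n = 4 each), and the log2 fold change was -0.25 (95% interval -0.43 to -0.06, limma adjusted p = 0.0953, unadjusted 0.0107). Together Txnrd1, Srxn1 and Nqo1 summed to 502, 497, 516 and 466 in WT, against 486, 448, 404 and 445 in Mettl3 KO. Only Mettl3 KO replicate 1 reached into the WT range of this sum. The sum of Cat, Gpx1 and Gpx3 lay the other way, without overlap. It was 909, 854, 930 and 871 in WT, against 989, 1005, 961 and 985 in Mettl3 KO. Among the genes of this sum Gpx3 alone had groups without overlap. Gpx1 and Cat overlapped, and Cat had a log2 fold change of -0.03. The sums of Gclc with Gclm and of Sod1 with Sod2 overlapped between the groups.

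**Figure D1:**
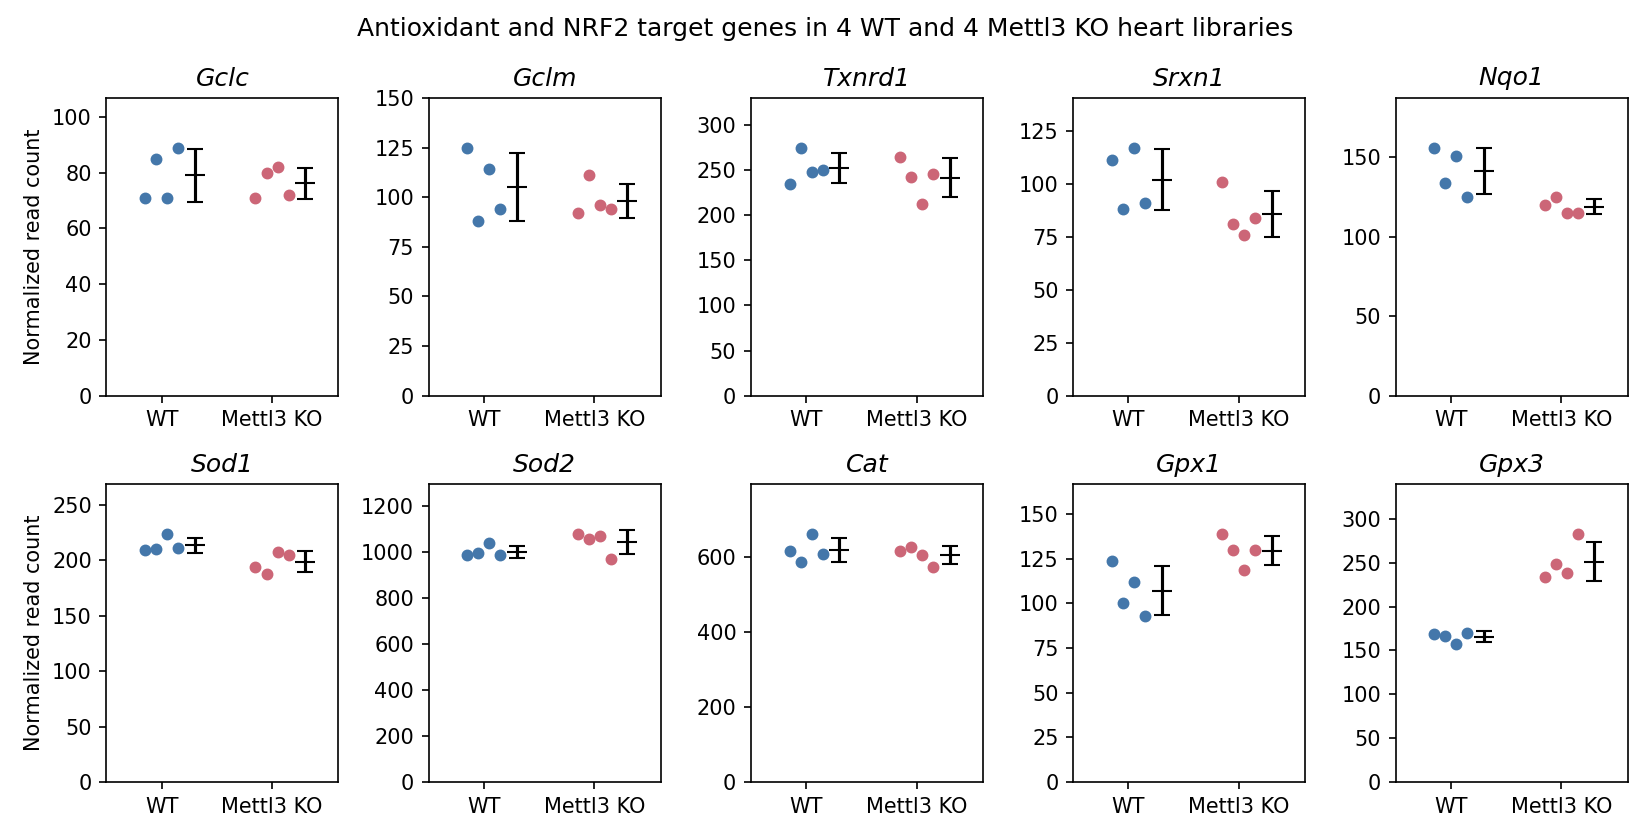
Normalized read counts (y axis, from 0) of the 10 genes in each of 4 WT (blue) and 4 Mettl3 KO (red) libraries, with replicates 1 to 4 from left to right and bars for the mean and SD. In Gpx3 the Mettl3 KO libraries (234 to 283) lie above the WT libraries (157 to 170), while in 8 of the other 9 genes the points of both groups overlap or touch.

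Superoxide is converted to hydrogen peroxide by copper-zinc superoxide dismutase (Sod1) in the cytosol and by manganese superoxide dismutase (Sod2) in mitochondria. Sod1 (ENSMUSG00000022982, mm39 chr16:90017642-90023217, plus strand) had 209, 210, 224 and 211 in WT, against 194, 188, 208 and 205 in Mettl3 KO. Every Mettl3 KO value lay below every WT value, but the lowest WT and the highest Mettl3 KO library differed by a single normalized read count. The log2 fold change of Sod1 was -0.10 (SE 0.07, 95% interval -0.24 to 0.04, limma adjusted p = 0.432). Groups without overlap were seen for 2 of the 10 genes, Gpx3 and Sod1, and for 11.5% of all tested genes. By direction, 1 of the 10 lay higher in Mettl3 KO and 1 lower, beside 6.46% and 5.04% of all tested genes.

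Sod2 (ENSMUSG00000006818, mm39 chr17:13225733-13258950, plus strand) had the highest count of the 10 genes. Its values were 985, 994, 1041 and 989 in WT, against 1079, 1056, 1069 and 969 in Mettl3 KO. Mettl3 KO replicate 4 was the lowest of all 8 and replicates 1, 2 and 3 were the highest. The log2 fold change was 0.06 (SE 0.04 and limma adjusted p = 0.522). With 942 to 1085 reads per library Sod2 was also the most precisely measured of the 10 genes, and its 95% interval ran from -0.03 to 0.15. The ratio of Sod2 to Sod1, each per kb of exon, was 1.84 to 1.88 in WT and 1.88 to 2.23 in Mettl3 KO libraries, ranges that overlapped narrowly. The direction of this ratio turned with the length used, since per kb of the longest coding transcript it was 0.508 to 0.518 in WT and 0.517 to 0.614 in Mettl3 KO libraries.

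Hydrogen peroxide is removed by catalase (Cat), the enzyme of peroxisomes, and by glutathione peroxidases, of which GPX1 works inside cells and GPX3 is secreted and circulates in plasma. Both glutathione peroxidases carry selenocysteine in the active site. Cat (ENSMUSG00000027187, mm39 chr2:103284194-103315505, minus strand) had 616, 587, 661 and 608 in WT, against 616, 626, 604 and 572 in Mettl3 KO. Its groups overlapped widely, and the log2 fold change was -0.03 (95% interval -0.13 to 0.07, limma adjusted p = 0.802).

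Gpx1 (ENSMUSG00000063856, mm39 chr9:108216102-108217542, plus strand) had 124, 100, 112 and 93 in WT, against 139, 130, 119 and 130 in Mettl3 KO. WT replicate 1 exceeded Mettl3 KO replicate 3, and otherwise the Mettl3 KO libraries were higher. The means were 107 ± 13.6 and 129.5 ± 8.19 (SD, n = 4 each), with a log2 fold change of 0.28 (95% interval 0.07 to 0.48, limma adjusted p = 0.0883, unadjusted 0.00947). Without WT replicate 1 the log2 fold change was 0.35 and the limma adjusted p was 0.0430, the only one of 19 alternatives in which a gene of the 10 other than Gpx3 passed.

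Gpx3 (ENSMUSG00000018339, mm39 chr11:54793279-54801203, plus strand) had 169, 167, 157 and 170 normalized read counts in WT, against 234, 249, 238 and 283 in Mettl3 KO. The lowest Mettl3 KO library stood above the highest WT library. The WT libraries varied by 3.60% (coefficient of variation), less than the about 6.91% that counting error gives at the mean over both groups. The log2 fold change was 0.59 (SE 0.07, 95% interval 0.44 to 0.74, limma adjusted p = 1.48e-05). Gpx3 passed in all 19 alternatives, with log2 fold changes of 0.45 to 0.62. The lowest came with the mean level of the atrial markers as covariate (limma adjusted p = 0.0115), and a value of 0.60 (limma adjusted p = 0.000379) was found without WT replicate 3 and Mettl3 KO replicate 1. Per kb of exon Cat exceeded Gpx3 by a factor of 2.44 to 2.92 in WT and of 1.40 to 1.83 in Mettl3 KO libraries, which did not overlap. The ratio of Gpx3 to Gpx1, each per kb of exon, overlapped between the groups (1.08 to 1.45 in WT and 1.34 to 1.73 in Mettl3 KO libraries).

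Markers of fibroblasts moved in the same direction as Gpx3. Of 8 fibroblast markers 7 rose (Col1a1, Col1a2, Col3a1, Dcn, Lum, Pdgfra and Postn), with a median log2 fold change of 0.40, and their sum was 3648 to 4172 in WT and 4711 to 5671 in Mettl3 KO libraries. Tcf21 did not pass (0.28, limma adjusted p = 0.286), and none of the 8 was at 0 in any library. Atrial muscle markers also moved, with 4 of 5 higher and sums of 633 to 743 in WT and 584 to 1476 in Mettl3 KO libraries. Kcnj3 lay lower and did not pass (log2 fold change -0.14, limma adjusted p = 0.290). With 532 to 616 in WT libraries, Kcnj3 made up most of the WT sums. The atrial marker Bmp10 was listed at 0 in all WT libraries and in Mettl3 KO replicate 1. Of 8 endothelial markers 1 rose and 3 fell, and their sum was 5376 to 5526 in WT and 4924 to 5316 in Mettl3 KO libraries. The part of these cell types in the result for Gpx3 was not tested. Macrophage markers summed to 1295 to 1582 in WT and 1309 to 1537 in Mettl3 KO libraries, with 1 of 8 lower (Cd163). Among 4 tested adipocyte markers Fabp4 fell (log2 fold change -0.22, limma adjusted p = 0.0363), while Adipoq (0.48), Plin1 (1.16) and Cfd (0.58), all at values of 0 to 4, did not pass, and the list median was 0.53.

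Across the 10 genes, 3 had a positive log2 fold change (Sod2, Gpx1 and Gpx3) and 7 a negative one, with a median of -0.05 beside -0.01 over all genes tested. Gpx3, Gpx1, Nqo1 and Srxn1 had a limma p under 0.05 before adjustment, 4 of 10, where 20.6% of all genes tested did. Among the 7405 genes with a mean value in the range of the 10 (77.6 to 1023), 13.9% had an adjusted p under 0.05. The 95% intervals of the 9 genes that did not pass lay between -28.5% and 39.2% of change from the WT level. Gclc had the fewest reads behind its values, with 64 to 92 per library.

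**Figure D2:**
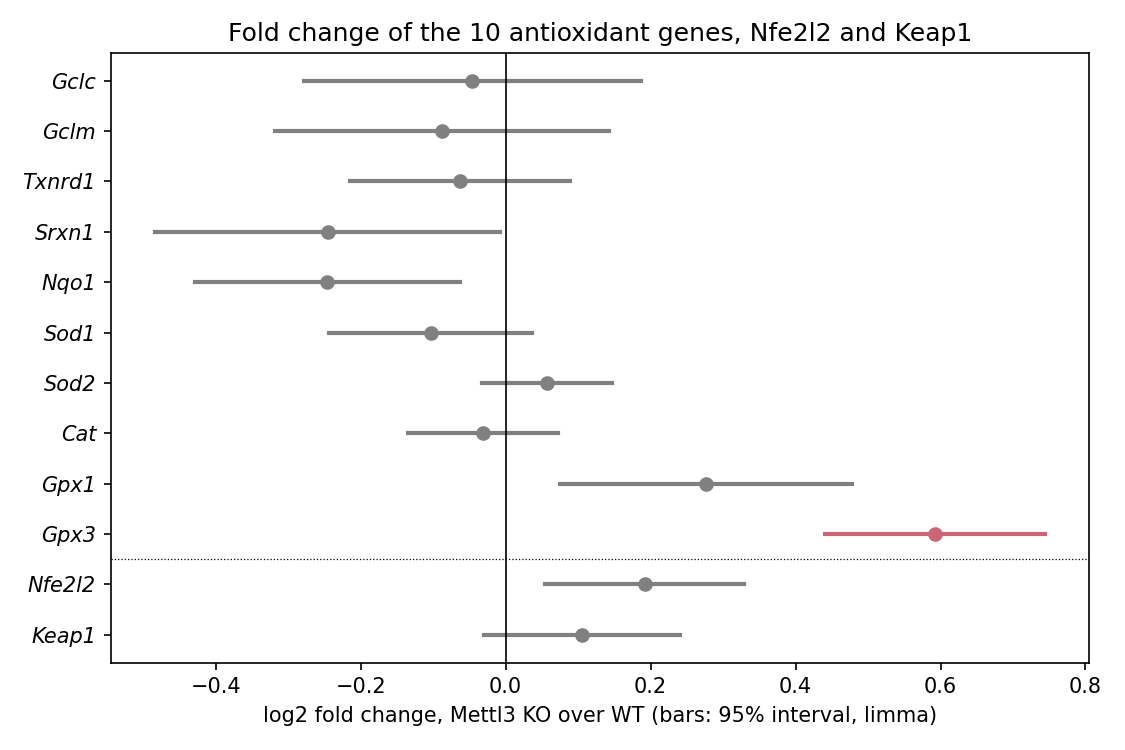
Log2 fold change of each of the 10 genes and of Nfe2l2 and Keap1 (x axis, Mettl3 KO over WT; positive values are higher in Mettl3 KO), with bars for the 95% interval from limma. The interval of Gpx3 (red, adjusted p under 0.05) runs from 0.44 to 0.74, while 6 of the other 9 intervals include 0 and those of Gpx1, Nqo1 and Srxn1 lie to one side of it without passing the adjusted test, as does that of Nfe2l2.

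Levels were compared between genes per kb, over all annotated exons and, as an alternative added after seeing the data, over the longest coding transcript. Per kb of exon, the WT level of Cat was 237 ± 11.9 (SD, n = 4), followed by Sod2 (100.1), Gpx3 (91.4), Nqo1 (91.1), Gpx1 (74.4), Sod1 (53.8), Srxn1 (36.1), Txnrd1 (35.6), Gclc (20.98) and Gclm (16.7). The ranges over WT libraries overlapped between Sod2 and Nqo1, Gpx3 and Nqo1, Nqo1 and Gpx1, Srxn1 and Txnrd1, and Gclc and Gclm. Per kb of transcript the order was Sod1 (333), Cat (237), Sod2 (171), Gpx3 (104), Gpx1 (100.05), Nqo1 (91.1), Txnrd1 (69.6), Srxn1 (36.2), Gclc (23.1) and Gclm (18.8), with overlapping WT ranges among Gpx3, Gpx1 and Nqo1 and between Gclc and Gclm.

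The place of Sod1 is therefore not resolved, because its annotated exons cover 3970 bases and its longest coding transcript 641, a ratio of 6.19. This ratio was 1.96 for Txnrd1, 1.71 for Sod2 and at most 1.34 for the other 7 genes. By both lengths Cat stood above Sod2, Sod2 above Gpx3 in WT hearts, and Gclc and Gclm, the subunits that make glutathione, came last. In Mettl3 KO hearts the order of Gpx3 and Sod2 turned with the length, with 138 against 104 per kb of exon and 157 against 178 per kb of transcript.

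**Figure D3:**
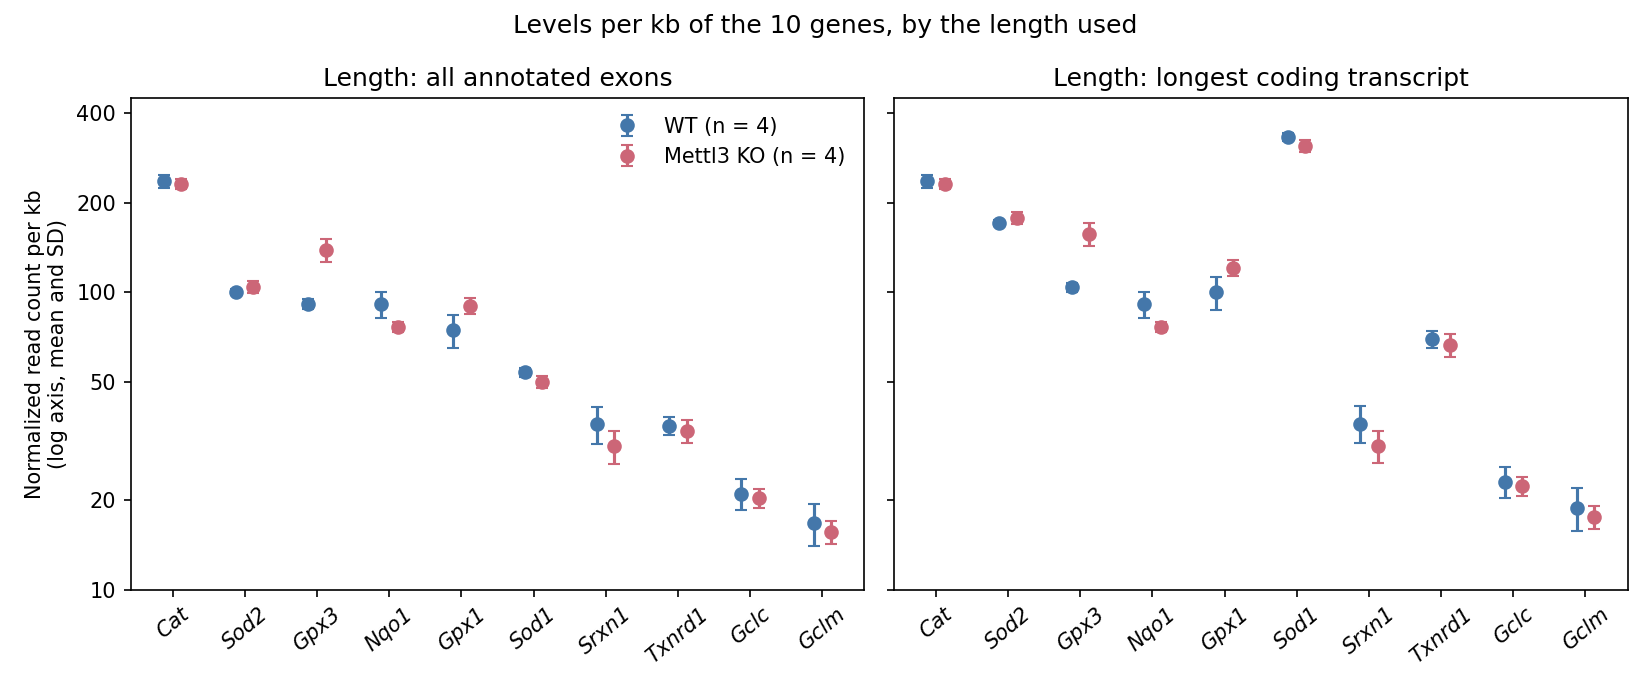
Normalized read count per kb (y axis, log scale) of the 10 genes, ordered by the WT mean per kb of exon, over all annotated exons (left) and the longest coding transcript (right), with points for the mean and bars for the SD of 4 WT (blue) and 4 Mettl3 KO (red) libraries. Sod1 moves from 53.8 to 333 in WT between the panels, while Gclc and Gclm are the lowest in both.

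The genes that control NRF2 were read next, from lists of redox genes that do not hold the 10, with some genes in more than one list. Of 10 control genes 0 passed limma's adjusted test and 2 had an unadjusted p under 0.05, with a median log2 fold change of 0.05. With limma voom 0 of the 10 passed as well. Nfe2l2 had 259, 243, 271 and 230 in WT, against 299, 272, 277 and 297 in Mettl3 KO. Its groups lay just apart, with a log2 fold change of 0.19 (95% interval 0.05 to 0.33, limma adjusted p = 0.0820, unadjusted 0.00846). Keap1 had 237, 244, 241 and 237 in WT, against 266, 234, 275 and 259 in Mettl3 KO. One Mettl3 KO library lay below all WT libraries and the others above them, and the log2 fold change was 0.11 (SE 0.07 and limma adjusted p = 0.396).

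Of 20 other NRF2 target genes 1 passed, and 5 had an unadjusted p under 0.05. Me1, the cytosolic malic enzyme that supplies NADPH, had 365, 325, 378 and 343 in WT, against 331, 264, 283 and 269 in Mettl3 KO. It fell with a log2 fold change of -0.30 (SE 0.07 and limma adjusted p = 0.00977), and Mettl3 KO replicate 1 lay inside the WT range. Hmox1, which codes for the inducible heme oxygenase, had 29.3 ± 6.29 in WT and 31.5 ± 4.43 in Mettl3 KO hearts (SD, n = 4 each; log2 fold change 0.12, limma adjusted p = 0.801). The list had a median log2 fold change of 0.03.

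In the glutathione system 1 of 21 genes passed, with a list median of -0.03. Glrx5, a mitochondrial glutaredoxin of iron-sulfur cluster assembly, had 89, 103, 105 and 113 in WT, against 132, 137, 134 and 125 in Mettl3 KO. Every Mettl3 KO value lay above every WT value, and Glrx5 had a log2 fold change of 0.37 (SE 0.09 and limma adjusted p = 0.0136). Gpx4, the glutathione peroxidase that reduces lipid peroxides, had a log2 fold change of -0.04 (limma adjusted p = 0.804). Of 18 thioredoxin and peroxiredoxin genes 1 passed, with a list median of 0.06. Sesn3, which codes for sestrin 3, had 197, 232, 179 and 220 in WT, against 234, 311, 277 and 290 in Mettl3 KO, without overlap (log2 fold change 0.42 with SE 0.09 and limma adjusted p = 0.00312). The covariate of atrial markers ended this call (0.13, limma adjusted p = 0.592). Txnip, which codes for a protein that binds thioredoxin, did not pass (log2 fold change 0.16, limma adjusted p = 0.470), and its log2 fold change was 0.02 without WT replicate 2, 0.28 without Mettl3 KO replicate 1 and 0.36 without WT replicate 3 and Mettl3 KO replicate 1 (limma adjusted p = 0.0534).

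Of 15 genes for superoxide handling, metallothioneins and sources of reactive oxygen species (ROS), 2 passed, and the list median was -0.06. Nox4, an NADPH oxidase that produces hydrogen peroxide, had 19, 12, 16 and 16 in WT, against 29, 28, 35 and 36 in Mettl3 KO. It rose without overlap, with a log2 fold change of 0.99 (SE 0.20 and limma adjusted p = 0.00312). Maob, a monoamine oxidase of the outer mitochondrial membrane, fell with overlap between the groups (log2 fold change -0.29 with SE 0.09 and limma adjusted p = 0.0372). Extracellular superoxide dismutase (Sod3) did not pass (log2 fold change 0.13, limma adjusted p = 0.636), with log2 fold changes of 0.04 without WT replicate 2 or 4, 0.24 without WT replicate 3 and 0.35 with the atrial covariate. Among 19 selenoproteins and genes of selenocysteine synthesis, a family to which Gpx1, Gpx3 and Txnrd1 belong, 1 passed and the median was 0.01. Selenoh fell from 31, 41, 36 and 39 in WT to 28, 27, 22 and 18 in Mettl3 KO libraries (log2 fold change -0.62 with SE 0.18 and limma adjusted p = 0.0397). Maob and Selenoh each lost their call in 9 of 19 alternatives, with log2 fold changes there of -0.32 to -0.11 for Maob and -0.71 to -0.38 for Selenoh. The covariate of atrial markers ended the calls of Me1 (-0.08), Glrx5 (0.42), Sesn3 (0.13) and Nox4 (0.87). Under it the log2 fold change came closer to 0 for Me1, Sesn3 and Nox4 and was higher for Glrx5. The SE rose to 0.14 for Glrx5 and to 0.32 for Nox4. The covariate itself went largely with genotype, at 2.69 to 4.87 in WT and 4.73 to 7.82 in Mettl3 KO libraries. Atrial muscle and genotype can therefore not be told apart in this fit.

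**Figure D4:**
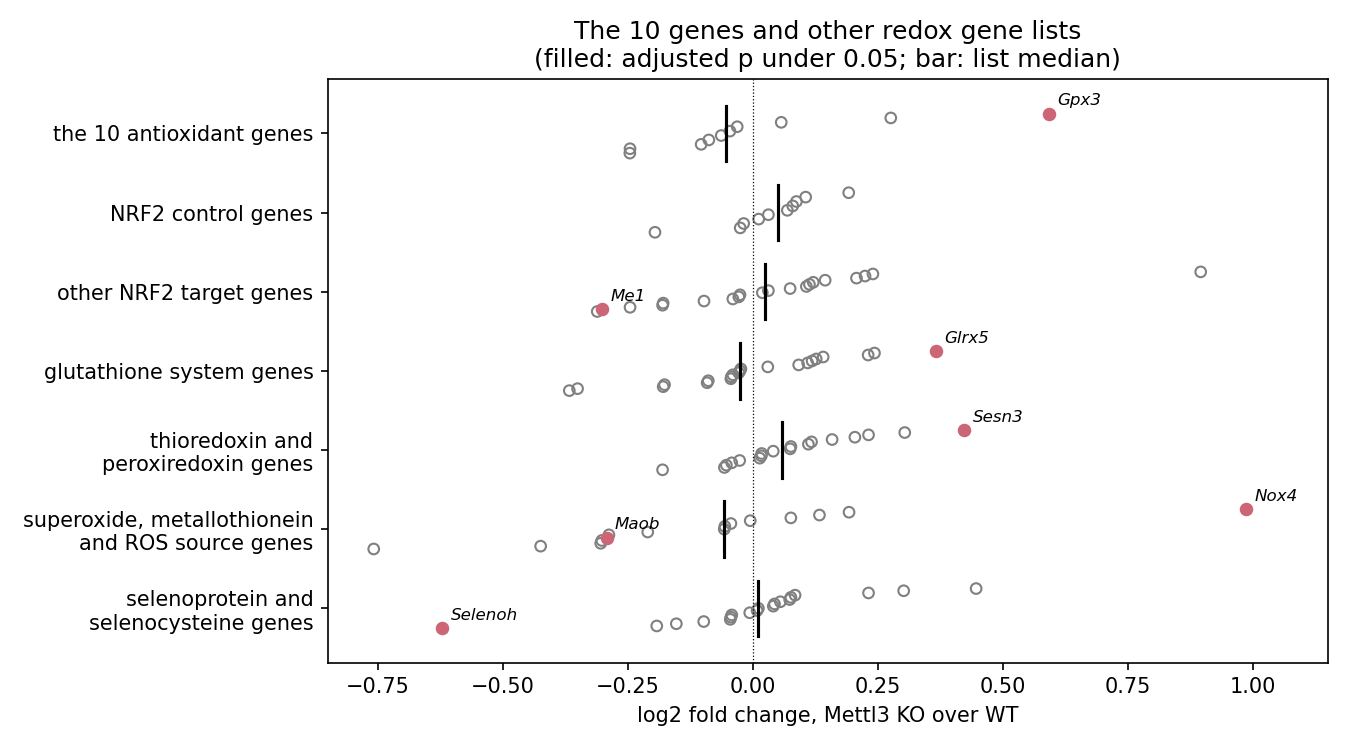
Log2 fold change (x axis, Mettl3 KO over WT) of every tested gene of the 10 and of 6 other lists, 1 point per gene, filled red where the limma adjusted p was under 0.05, with a vertical bar at the list median. The list medians lie between -0.06 and 0.06, and between 0 and 2 genes per list are filled.

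The genes whose levels ran most like those of the 3 genes with the lowest adjusted p were looked up over log2 levels of the 8 libraries among 9312 genes, as a description. All points share the genotype groups, and a gene that differs between genotypes will resemble another that does. For Gpx3 these were Tmx4 (Pearson r 0.985), Rpl22 (0.983) and Thbs1 (0.981). For Gpx1 they were Pi16 (0.967), St3gal1 (0.955) and Rdh13 (0.949), and for Nqo1 St3gal6 (0.973), Cd163 (0.971) and Vps52 (0.962).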

How the data were processed

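Stranded single-end libraries (72 bases) of heart total RNA were analysed from 1 deposited table. The study's methods state that reads were trimmed by the authors (Trimmomatic 0.39), aligned with STAR 2.7.11a to mm39, freed of duplicates (Picard 3.1.1) and multi-mapping reads, and counted on exons in a strand-specific way (featureCounts 2.0.4) without reads shared by several genes. Gclm, Txnrd1, Sod1 and Gpx1 overlap other gene models (Txnrd1 with Eid3 on its own strand), and reads there were not counted or went by strand. The deposited values are a score, read counts that the authors normalized with DESeq2 1.36.0 and rounded to whole numbers, and not raw counts. The design had foreseen this, and limma 3.58.1 (R 4.3.3) was run on log2(value + 1) for the 20313 genes whose mean value reached 1 (2732 did not), with a mean-variance trend, genotype as the only term, two-sided tests and Benjamini-Hochberg adjustment over all genes. Fold changes on this scale understate changes of low genes. The fit was tested on simulated data. Reads behind the values were estimated from the spacing of low values, which gave factors of 0.927 to 1.11 per library. Library pairs of the same genotype differed by more than sampling noise (chi-square per degree of freedom 1.11 to 1.94). All 8 columns were used, with groups as in the labels.

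The 10 genes, the redox and marker lists and the alternatives were chosen with earlier results of these data known. Named genes were the 10, Mettl3, Nfe2l2, Keap1, Hmox1, Gpx4, Sod3, Txnip, up to 5 genes per redox list with an adjusted p under 0.05, and the 3 genes most like each of the 3 of lowest adjusted p among genes with a mean of at least 50. Myl7 and marker genes were named beside results they moved with. Esr1, part of the transgene, was checked and was higher in Mettl3 KO in every alternative. Alternatives were other scalings, filters (none, or a mean of at least 10), pseudocounts (0.5 and 5), limma voom on deposited values or estimated reads, the replicate number as a block, an atrial marker covariate, each library left out in turn and, chosen after seeing the data, WT replicate 3 and Mettl3 KO replicate 1 left out together and another gene length for levels per kb. Promoter sequences came from RefSeq (GRCm38.p6), and transcripts for GGACT from a GRCm38 annotation. Coordinates of genes are those of the deposited table (mm39).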

Additional observations from a re-analysis of the deposited data

Results flagged for a closer look

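In WT hearts the value of replicate 3 stood apart for both superoxide dismutases. For Sod1 the gap between this library (224) and the next (211) was 0.867 of the group's range, and for Sod2 the gap between 1041 and 994 was 0.839 of the range, both above Dixon's 95% critical value for 4 libraries. Of 48 groups examined (24 genes in both genotypes) these 2 were marked, where chance gives about 2.4. WT replicate 3 is also the library with the lowest atrial marker sum among WT libraries (633, of which Kcnj3 made up 616). Without it the log2 fold change of Sod1 was -0.08 and that of Sod2 0.08.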

How the results depend on the processing

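Gpx3 kept its direction and its call in all 19 alternatives (log2 fold change 0.45 to 0.62, limma adjusted p 2.85e-06 to 0.0115). The count of the 10 genes that passed was 1 in 18 of them and 2 without WT replicate 1 (range 1 to 2 with a library left out), where Gpx1 had a log2 fold change of 0.35 (0.21 to 0.35 with a library left out). The other 8 genes passed in none, and among them the sign changed for Gclc without WT replicate 4 (0.01), Txnrd1 (0.02) and Srxn1 (0.04) with the atrial marker covariate, and Cat with that covariate (0.06) or without WT replicate 3 (0.00146). Nqo1 ranged from -0.30 to -0.18 (limma adjusted p 0.0537 to 0.535) and Nfe2l2 had a limma adjusted p of 0.0502 to 0.229. Among the genes named besides the 10, Hmox1 was -0.05 without WT replicate 4 and Gpx4 0.02 with the atrial covariate, and neither passed in any alternative.

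The count over all genes was 1607, fell to 952 with the atrial covariate (627 shared) and was 1019 to 1596 with a library left out, lowest without Mettl3 KO replicate 3. With the atrial covariate 0 genes passed in the lists of other NRF2 targets, glutathione, thioredoxin, superoxide and selenoprotein genes, with limma adjusted p of 0.723 for Me1 (-0.08), 0.0938 for Glrx5 (0.42), 0.592 for Sesn3 (0.13) and 0.135 for Nox4 (0.87). The cause was not tested, and the covariate itself went largely with genotype. Leaving out WT replicate 3 and Mettl3 KO replicate 1 together gave 1 superoxide gene in place of 2 and 0 selenoprotein genes. With single libraries left out the lists gave 0 to 1 control genes (Bach1 without WT replicate 2), 0 to 2 other NRF2 targets (Prdx1 gained without Mettl3 KO replicate 1, Me1 lost without Mettl3 KO replicate 2), 0 to 2 glutathione genes (Glrx5 lost without WT replicate 1 or Mettl3 KO replicate 2, Mgst1 gained without WT replicate 4), 1 to 2 thioredoxin genes (Prdx1 gained without Mettl3 KO replicate 1), 1 to 2 superoxide genes and 0 to 1 selenoprotein genes (Maob and Selenoh each lost without WT replicate 2, 3 or 4 or Mettl3 KO replicate 2, 3 or 4). Levels per kb, and with them the order of Sod1, Sod2 and Gpx3, depended on the length used.

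WT and Mettl3 KO libraries share replicate numbers, but no pairing by number was seen. Correlations of deviations between same-numbered libraries were -0.04 to 0.09, and 3 of 8 libraries were matched best by their own number. Whether same-numbered libraries shared a litter or a processing batch was not tested. With the replicate number as a block 1346 genes passed in all, Gpx3 had a limma adjusted p of 0.000246, 1 of the 10 genes passed, and 1 superoxide gene (Maob lost) and 0 selenoprotein genes (Selenoh lost) remained called.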

Other observations

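Of 93 tested genes in the 6 redox lists, each counted once, 14 (15.1%) had groups without overlap, beside 11.5% of all tested genes. Of these 14, 4 passed the adjusted test (Glrx5, Sesn3, Nox4 and Selenoh) and 10 did not, 5 with higher and 5 with lower values in Mettl3 KO and log2 fold changes from -0.31 (Blvrb) to 0.24 (Cbr1). Those not described above were picked out after their values were seen. Prdx1, a peroxiredoxin that removes hydrogen peroxide, had 251, 241, 251 and 249 in WT, against 238, 220, 213 and 205 in Mettl3 KO (log2 fold change -0.18, limma adjusted p = 0.101). Secisbp2, whose protein reads the selenocysteine insertion element of selenoprotein mRNAs, had 197, 194, 191 and 219 in WT, against 173, 171, 170 and 186 in Mettl3 KO (log2 fold change -0.19, limma adjusted p = 0.113). Sesn1, which codes for sestrin 1, had 438, 446, 424 and 444 in WT, against 472, 492, 471 and 466 in Mettl3 KO (log2 fold change 0.12, limma adjusted p = 0.169). Blvrb (-0.31), Hagh (-0.18) and Selenot (-0.10) also lay lower, and Cbr1 (0.24), Gpx8 (0.23) and Nfe2l1 (0.07) higher, with limma adjusted p between 0.169 and 0.443.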
